A study of Homo sapiens with 12 samples.

Results

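The genes described here encode 10 transcription factors that set myeloid fate in leukemia cells, namely GFI1, MYB, CEBPA, CEBPD, SPI1, RUNX1, IRF8, ZEB2, KLF6 and LMO2. They were chosen by name, as the rows with these symbols, and are 10 of the 14866 genes listed for each library. RNA came from SHI-1, an acute myeloid leukemia cell line that carries the MLL-AF6 fusion, so every group shares this fusion and a single line stands for the disease. There were 4 groups of 3 libraries from independent experiments, each treated for 16 h. The groups received DMSO as vehicle, 0.3 µM disulfiram with 1 µM copper (DSF), 5 µM niclosamide (NSM), or both treatments together (DSF+NSM). The labels name copper only with DSF, and whether the DMSO and NSM groups received copper is not stated in the sources used here.

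Myeloid cells mature as progenitor factors are switched off and lineage factors take over. MYB and RUNX1 maintain blood progenitors, LMO2 bridges DNA-bound partners in a progenitor complex, and GFI1 and ZEB2 are repressors. PU.1 (encoded by SPI1) and the C/EBP proteins open and activate granulocyte and monocyte genes, IRF8 acts with PU.1 in the monocyte and dendritic lineage, and KLF6 is a zinc finger factor induced in maturing and stressed cells. MLL-fusion leukemia keeps a progenitor programme active on a PU.1 and C/EBPα background.

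Sequences upstream of the annotated start are given for the member that rose with each treatment and for 2 that fell when both were given. They are the strand of the gene, 5′ to 3′, from RefSeq (GRCh38.p14), with no annotated exon in the stretch printed. Capitals mark the GC box bound by KLF and SP proteins (GGGCGG) in each sequence and, in KLF6, also the CCAAT box bound by NF-Y (CCAAT), either letter string being read on both strands. The stretches are chr10:3785282-3785459 (minus strand, 178 bases) for KLF6, chr1:92486926-92487175 (minus strand, 250 bases) for GFI1 and chr6:135181058-135181307 (plus strand, 250 bases) for MYB.
KLF6: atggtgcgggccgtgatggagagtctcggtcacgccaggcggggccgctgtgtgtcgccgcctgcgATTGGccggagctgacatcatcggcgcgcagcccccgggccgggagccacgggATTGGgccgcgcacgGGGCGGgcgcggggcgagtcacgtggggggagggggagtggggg
GFI1: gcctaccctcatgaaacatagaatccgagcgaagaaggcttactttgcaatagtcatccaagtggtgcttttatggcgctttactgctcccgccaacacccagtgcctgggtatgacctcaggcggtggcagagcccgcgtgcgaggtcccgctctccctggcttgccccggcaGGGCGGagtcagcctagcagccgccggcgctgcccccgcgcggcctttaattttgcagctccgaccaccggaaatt
MYB: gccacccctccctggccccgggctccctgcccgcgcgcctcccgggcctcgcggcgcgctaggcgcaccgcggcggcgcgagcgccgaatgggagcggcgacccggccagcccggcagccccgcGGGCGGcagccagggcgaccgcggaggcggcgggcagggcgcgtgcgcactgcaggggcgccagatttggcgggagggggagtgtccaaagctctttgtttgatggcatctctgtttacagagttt
By GENCODE 44 (GRCh38), KLF6 spans chr10:3775996-3785281 and GFI1 chr1:92473043-92486925, both on the minus strand, and MYB spans chr6:135181308-135219173 on the plus strand, so each stretch ends at the base before the gene. KLF6 held 2 CCAAT boxes and 1 GC box in these bases, whereas GFI1 and MYB held 1 GC box each. Outside the stretch printed, KLF6 has a further GC box 61 to 56 bases before the RefSeq start. GFI1 has a CCAAT box 247 to 243 bases before another annotated start, and RUNX1 also holds CCAAT boxes. Of 35116 promoters in the table, 32.0% held CCAAT and 42.6% held GGGCGG within 250 bases before the start. The upstream 250 bases were 72.4% G or C in KLF6, 61.2% in the GFI1 stretch shown and 75.6% in MYB, against a median of 58% over all promoters. Promoter sequences were matched for 7 of the 10 genes, and not for CEBPD, SPI1 and LMO2. The letter matches are descriptions of the sequence and were not tied to binding or to the changes below.

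The values are normalized counts as deposited by the authors, from which whole reads could not be restored. From the steps between the lowest values, depth was estimated at 10.2 M reads in the shallowest and 19.0 M in the deepest library. Normalized counts summed to between 14.0 M and 17.5 M in the DMSO and single-drug libraries, but to between 22.7 M and 25.6 M in those with both drugs. The 6 rRNA genes listed took 1.88% to 3.58% of the sum in DMSO and 9.63% to 11.7% with both drugs, and their part in the results was not tested. If the libraries are scaled to equal sums instead, the median log2 change of all genes with DSF+NSM moves from 0.03 to -0.75, so changes below are relative to the scale of the authors. NSM replicate 3 stood apart from the other NSM libraries. In NSM replicate 2 and DSF+NSM replicate 1 the B-cell factor PAX5 reached 161 and 471, against 1.29 to 15.5 in the other 10 libraries. Further B-cell markers were CD79A, at 33.5 and 92.0 against 11.0 to 36.7, and MS4A1, which was listed at 0 in every library. For the 10 members, the value without a library of these 3 is given where leaving that library out changed a call. It is also given where a called value moved by over 1.5 times. All 10 myeloid identity markers examined were detected, with MPO the most abundant at 14453 to 62640.

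In untreated cells the members spanned a wide range of levels (per kilobase of exon, mean ± SD of 3 DMSO libraries). SPI1 was highest at 2235 ± 47.9 normalized counts per kilobase, above 98.2% of the 11802 tested genes with a length. It was followed by CEBPA at 1056 ± 31.6, MYB at 710 ± 37.0, LMO2 at 593 ± 13.9 and GFI1 at 484 ± 6.01. These 5 genes lay above 90.5% or more of the genes ranked, and their ranges over the DMSO libraries did not overlap. CEBPD followed at 142 ± 17.8, then KLF6 at 86.9 ± 2.13, RUNX1 at 85.8 ± 3.31 and ZEB2 at 70.3 ± 4.36. KLF6 and RUNX1 could not be ordered within their spread. IRF8 was barely detected, at 1.56 ± 0.510 per kilobase, above 5.09% of genes. Dividing by the longest transcript in place of all exons put MYB (1059 ± 55.2) level with CEBPA (1056 ± 31.6), with overlapping ranges. It also moved ZEB2 and RUNX1 above CEBPD and put GFI1 above 88.8% of genes. Parts of the order below SPI1, and the share given for the 5 highest genes, thus depend on the length used.

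**Figure D1:**
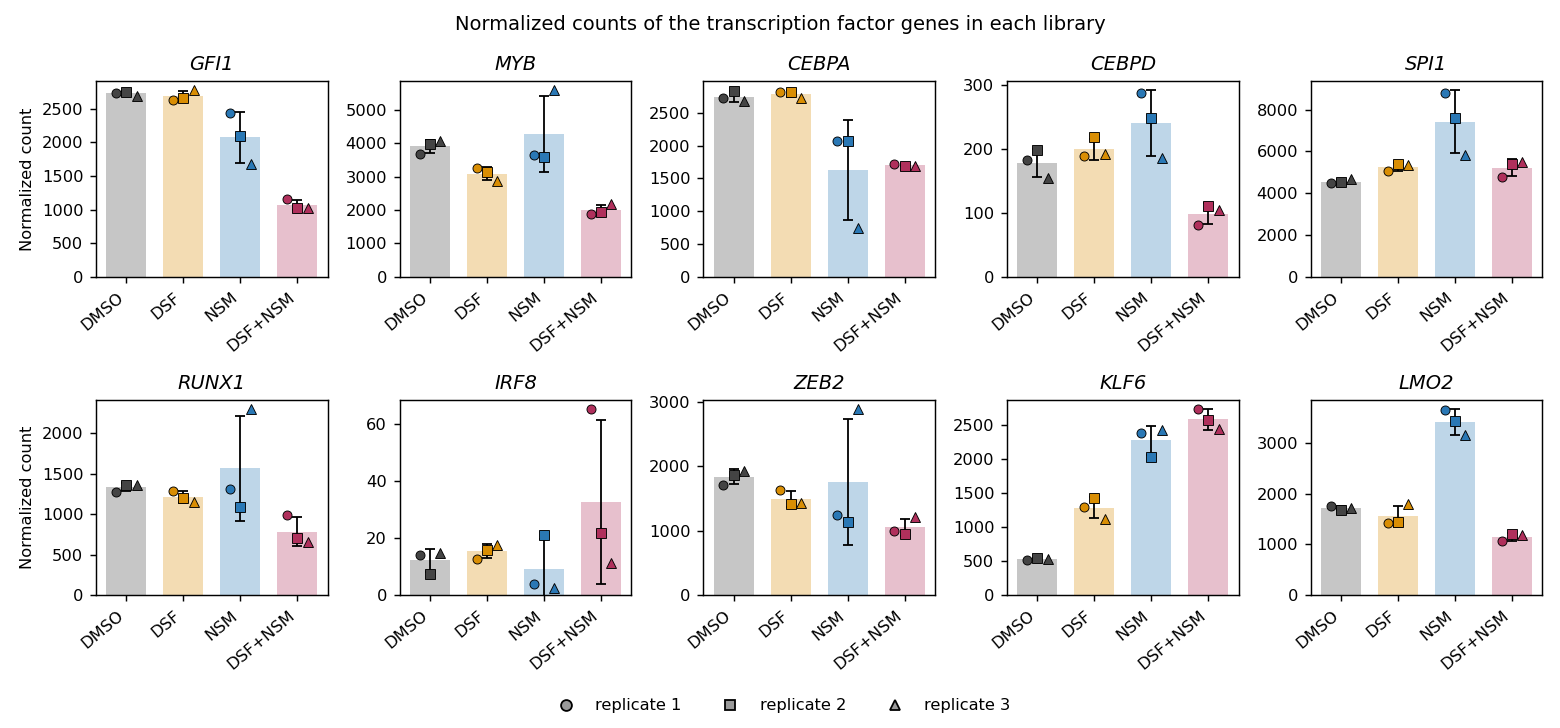
Normalized counts of the 10 genes in DMSO, DSF, NSM and DSF+NSM libraries; bars are means of 3 libraries, error bars are SD (that of IRF8 in NSM is clipped at 0) and symbols are the libraries by replicate number. GFI1, MYB and CEBPD were lowest with both drugs, KLF6 was higher in every treated library than in DMSO, and NSM replicate 3 lay apart for CEBPA, RUNX1 and ZEB2.

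Genes were kept where 3 or more libraries held a normalized count of 10 or more, which left all 10 members and 13502 genes in all. They were tested with limma on log2(normalized count + 1). A call means an adjusted p under 0.05, by the Benjamini-Hochberg method over all 13502 genes. Because the comparisons with DMSO share the same 3 control libraries, they are set side by side and not correlated. In bulk RNA, fewer cells of a type and less RNA per cell cannot be told apart.

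DSF alone left most of these genes near their DMSO level. KLF6 rose, and the other 9 genes did not pass the test. The call of 1 gene in 10 stands beside 17.8% of all genes called in this comparison. The median log2 change was 0.00 over the 10 genes and 0.05 over all genes. MYB and ZEB2 had lower values in all DSF than in all DMSO libraries, with log2 changes of -0.34 (adjusted p = 0.157) and -0.30 (adjusted p = 0.485). All groups share 1 estimate of spread, and with NSM replicate 3 left out of it both passed at adjusted p = 0.00491 and 0.0273, and 41.1% of all genes were then called.

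NSM alone moved these genes in both directions. KLF6, LMO2 and SPI1 rose, GFI1 and CEBPA fell, and the other 5 did not pass the test, beside 49.1% of all genes called. The median log2 change was 0.13 over the 10 genes and 0.01 over all genes. Leaving out any of the 3 DMSO libraries in turn lowered the count from 5 to 3, with GFI1 (adjusted p = 0.052 to 0.0636) and CEBPA (adjusted p = 0.0546 to 0.0636) no longer called, while the share of all genes called fell to between 40.1% and 40.8%. Leaving out NSM replicate 3 raised it to 7, with CEBPD added as a rise and ZEB2 as a fall, beside 59.8% of all genes.

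With both drugs the balance was towards lower values. GFI1, MYB, CEBPD, RUNX1, ZEB2 and LMO2 fell and KLF6 rose, so that 7 of the 10 genes were called beside 52.8% of all genes. The median log2 change was -0.74 over the 10 genes and 0.03 over all genes, of which 3816 were called higher and 3309 lower. On the equal-sums scale, 8 members were called lower and 1 higher, and SPI1 changed from a log2 change of 0.19 (adjusted p = 0.257) to -0.59 (adjusted p = 0.00321). All genes then split into 1526 higher and 7608 lower.

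**Figure D2:**
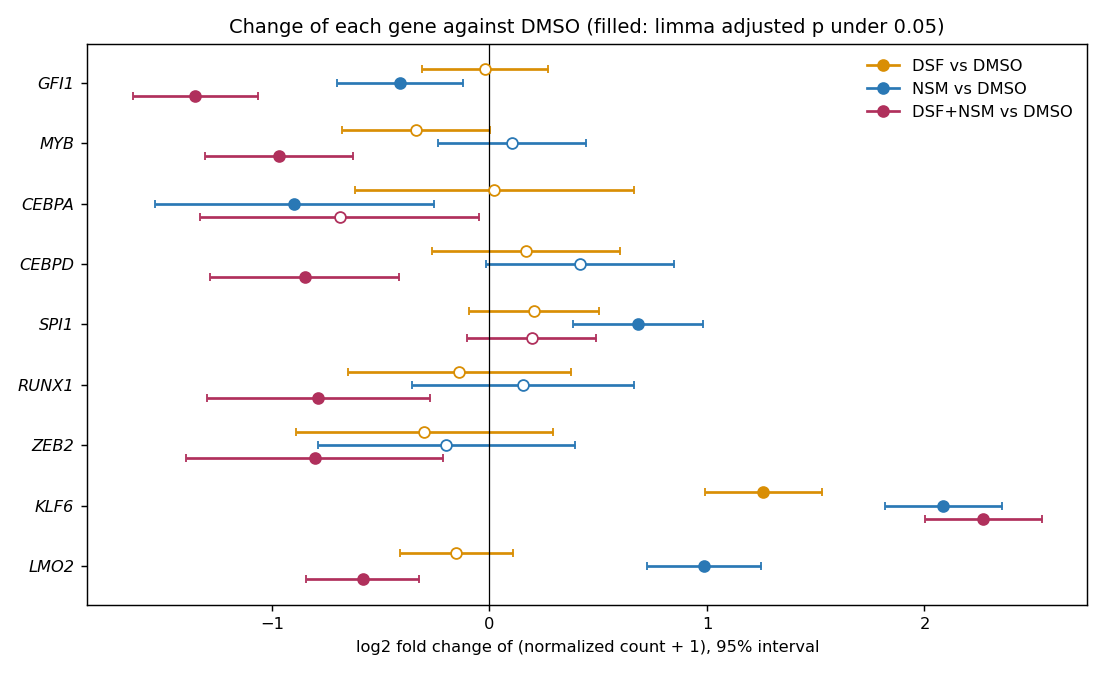
Log2 fold change against DMSO of 9 of the genes (IRF8 is left out for its low counts) with 95% intervals from limma; filled symbols passed the test. KLF6 lay to the right with every treatment, whereas GFI1 moved furthest to the left with both drugs, at -1.35.

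Set against DSF alone, the combination called 6 of the 10 genes, beside 43.1% of all genes. KLF6 was higher, and GFI1, MYB, CEBPD, RUNX1 and LMO2 were lower. Set against NSM alone, it also called 6 genes, beside 38.6% of all genes, and GFI1, MYB, CEBPD, SPI1, RUNX1 and LMO2 were all lower. The interaction subtracts the added changes of DSF alone and NSM alone from the change with both drugs, and it was called for 6 genes beside 26.1% of all genes. It was negative for GFI1, MYB, CEBPD, SPI1, KLF6 and LMO2. On the equal-sums scale KLF6 was lower with both drugs than with NSM (log2 change of -0.33, adjusted p = 0.0318), where the authors' scale gave 0.19 (adjusted p = 0.256).

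Among the repressors, GFI1, which restrains monocyte genes and recruits the demethylase LSD1, fell the most. Its normalized counts were 2743, 2756 and 2692 in DMSO, 2639, 2663 and 2776 in DSF, 2445, 2095 and 1687 in NSM, and 1160, 1026 and 1024 in DSF+NSM. The DSF values overlapped those of DMSO, each NSM library lay below them, and each DSF+NSM library lay below every other library. The log2 changes were -0.02 ± 0.13 (SE, as for every log2 change below) with DSF (adjusted p = 0.934), -0.41 ± 0.13 with NSM (adjusted p = 0.0215) and -1.35 ± 0.13 with both (adjusted p = 4.51e-06). The interaction was -0.92 ± 0.19 (adjusted p = 0.0036). Without NSM replicate 3 the change with NSM was -0.27 (adjusted p = 0.0215). Mean counts with both drugs were 0.392 times those in DMSO.

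ZEB2, a zinc finger repressor that acts in monocyte and dendritic cell specification, was read at 1711, 1872 and 1932 in DMSO, 1629, 1422 and 1433 in DSF, 1241, 1142 and 2892 in NSM, and 1005, 958 and 1208 in DSF+NSM. NSM replicate 3 was above every other library, while the other NSM libraries were below all DMSO libraries. ZEB2 fell with both drugs (log2 change of -0.80 ± 0.27, adjusted p = 0.025), and this call was lost at adjusted p = 0.064 to 0.0784 when DMSO replicate 2, DMSO replicate 3, DSF+NSM replicate 1 or DSF+NSM replicate 2 was left out. With NSM alone its log2 change was -0.20 (adjusted p = 0.571), or -0.62 (adjusted p = 0.00021) without NSM replicate 3. Without that library it was also lower with both drugs than with DSF (-0.50, adjusted p = 0.000514). Its difference between both drugs and NSM was -0.61 (adjusted p = 0.0956), or -0.85 (adjusted p = 0.0302) without NSM replicate 2. Exons of the antisense gene ZEB2-AS1 share 1299 bases with those of ZEB2, and the library kit does not mark strand.

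Of the progenitor factors, MYB, which sustains proliferation of immature cells, was lowest with both drugs. Its counts were 3674, 3974 and 4061 in DMSO, 3264, 3140 and 2864 in DSF, 3658, 3597 and 5580 in NSM, and 1873, 1949 and 2172 in DSF+NSM. Every DSF+NSM library lay below every library of the other groups, and NSM replicate 3 lay above all others. MYB fell by 0.97 ± 0.16 on the log2 scale with both drugs (adjusted p = 0.00025), and was lower than with DSF (-0.63, adjusted p = 0.00639) and than with NSM (-1.07, adjusted p = 0.000241). The interaction of -0.73 ± 0.22 (adjusted p = 0.0287) missed the threshold, at adjusted p = 0.0584 to 0.0744, when DMSO replicate 1 or 2, DSF replicate 1 or 2, or DSF+NSM replicate 1 or 2 was left out. Without NSM replicate 3 it was -0.52 (adjusted p = 0.0032). Exons of MYB-AS1, on the opposite strand, share 103 bases with those of MYB.

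RUNX1, the DNA-binding partner of CBFβ, had counts of 1277, 1362 and 1369 in DMSO, 1291, 1203 and 1150 in DSF, 1312, 1088 and 2304 in NSM, and 995, 704 and 661 in DSF+NSM. All DSF+NSM libraries were below the rest, with replicate 1, the library high in PAX5, closest to them. RUNX1 fell with both drugs (log2 change of -0.79 ± 0.24, adjusted p = 0.0137), and the call was lost at adjusted p = 0.0504 and 0.0561 without DSF+NSM replicate 2 or 3. The change with NSM alone was 0.16 (adjusted p = 0.609) and became -0.16 (adjusted p = 0.361) without NSM replicate 3. Against NSM the change with both drugs was -0.94 (adjusted p = 0.0077), or -0.63 (adjusted p = 0.00251) without NSM replicate 3. The interaction of -0.80 (adjusted p = 0.0949) was called without NSM replicate 2, at -1.03 (adjusted p = 0.0322). Its lower level than with DSF alone (-0.65, adjusted p = 0.0414) was lost in each of 8 fits without a single DMSO, DSF or DSF+NSM library (adjusted p = 0.0566 to 0.136).

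LMO2, the bridging protein of the TAL1 and GATA complex, moved in opposite directions with NSM and with the combination. It was read at 1756, 1676 and 1718 in DMSO, 1427, 1447 and 1786 in DSF, 3651, 3433 and 3145 in NSM, and 1063, 1200 and 1177 in DSF+NSM. The NSM libraries all lay far above the other groups and the DSF+NSM libraries all lay below them. LMO2 rose with NSM (log2 change of 0.99 ± 0.12, adjusted p = 3.75e-05) and fell with both drugs (-0.58 ± 0.12, adjusted p = 0.00142). The difference between the combination and NSM was -1.57 ± 0.12 (adjusted p = 1.84e-06), and the interaction was -1.42 ± 0.17 (adjusted p = 0.000162). Against DSF alone the change was -0.43 (adjusted p = 0.0117), which was lost at adjusted p = 0.0625 without DSF replicate 3 and 0.0501 without DSF+NSM replicate 1.

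SPI1, which encodes the myeloid pioneer factor PU.1, showed a rise with NSM that was not seen at that size with both drugs. Its counts were 4477, 4536 and 4668 in DMSO, 5058, 5402 and 5329 in DSF, 8813, 7623 and 5844 in NSM, and 4769, 5391 and 5513 in DSF+NSM. Every treated library was above every DMSO library, and the NSM libraries were the highest of all. SPI1 rose with NSM by a log2 change of 0.68 ± 0.14 (adjusted p = 0.0014), while DSF gave 0.21 (adjusted p = 0.325). It was lower with both drugs than with NSM (-0.49, adjusted p = 0.0142), and the interaction was -0.70 (adjusted p = 0.0195). Without DSF+NSM replicate 1 these became -0.43 (adjusted p = 0.063) and -0.63 (adjusted p = 0.0554), and without DSF replicate 2 the interaction was -0.68 (adjusted p = 0.0509).

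CEBPD, a C/EBP factor of granulocytes and macrophages, was the least abundant member after IRF8 in counts. It was read at 182, 198 and 154 in DMSO, 189, 218 and 192 in DSF, 287, 249 and 185 in NSM, and 80.5, 111 and 104 in DSF+NSM. The DSF+NSM libraries were below all others, and NSM replicate 3 fell within the DMSO range while the other NSM libraries were above it. CEBPD fell with both drugs (log2 change of -0.85 ± 0.20, adjusted p = 0.00331). With NSM alone the change was 0.42 (adjusted p = 0.102), or 0.59 (adjusted p = 0.00917) without NSM replicate 3. The combination differed from NSM by -1.27 ± 0.20 (adjusted p = 0.000404), and the interaction of -1.43 ± 0.28 (adjusted p = 0.00299) had the greatest size of any called among the 10 genes.

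CEBPA, which encodes the C/EBPα factor of granulocyte commitment, was read at 2729, 2835 and 2673 in DMSO, 2820, 2820 and 2729 in DSF, 2077, 2070 and 743 in NSM, and 1723, 1696 and 1689 in DSF+NSM. NSM replicate 3 was 0.358 times the mean of the other NSM libraries, and every NSM and DSF+NSM library was below every DMSO and DSF library. CEBPA fell with NSM (log2 change of -0.90 ± 0.30, adjusted p = 0.0239), or by 0.40 (adjusted p = 0.000412) without NSM replicate 3. With both drugs the change was -0.69 ± 0.30 and missed the threshold (adjusted p = 0.0671), although its 3 libraries spanned only 1689 to 1723. Without NSM replicate 3 the same change had an adjusted p of 5.48e-07. The difference between the combination and NSM turned from 0.21 (adjusted p = 0.599) to -0.28 (adjusted p = 0.00775) without that library. The change against DSF, -0.71 (adjusted p = 0.0699), and the interaction, 0.19 (adjusted p = 0.777), became -0.71 (adjusted p = 6.94e-07) and -0.31 (adjusted p = 0.0271). CEBPA shares 659 and 482 exon bases with 2 unnamed genes on the opposite strand, which these unstranded reads cannot separate.

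IRF8, the monocyte and dendritic cell factor, was at 14.2, 7.60 and 14.8 in DMSO, 12.8, 16.0 and 17.6 in DSF, 3.95, 21.2 and 2.57 in NSM, and 65.2, 21.8 and 11.2 in DSF+NSM. The groups overlapped in every comparison, and a single read corresponds to between 0.756 and 2.22 normalized counts, so no fold change is given. It was not called in any of the 6 comparisons. The highest value came from DSF+NSM replicate 1, in which PAX5 and CD79A were also highest. NSM replicate 2, with the next highest PAX5, had an IRF8 value about that of DSF+NSM replicate 2. The part of B-cell RNA in these values was not tested. Without both of those libraries IRF8 was called with NSM against DMSO (adjusted p = 0.0157) and with both drugs against NSM (adjusted p = 0.0157), on values of 3.95 and 2.57 in NSM that are a few reads each.

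KLF6 was the member that rose with every treatment. Its counts were 522, 548 and 530 in DMSO, 1298, 1433 and 1123 in DSF, 2374, 2028 and 2419 in NSM, and 2735, 2575 and 2432 in DSF+NSM. The 4 groups did not overlap, and they stood in the order DMSO, DSF, NSM and DSF+NSM, with the lowest DSF+NSM library just above the highest NSM library. Mean counts were 2.41 times the DMSO mean with DSF, 4.26 times with NSM and 4.84 times with both. The log2 changes were 1.26 ± 0.12 (adjusted p = 3.54e-05), 2.09 ± 0.12 (adjusted p = 2.13e-07) and 2.27 ± 0.12 (adjusted p = 4.12e-08). The combination exceeded DSF by 1.01 (adjusted p = 5.51e-05), whereas its difference from NSM was 0.19 with a 95% interval of -0.08 to 0.45 (adjusted p = 0.256). The interaction of -1.07 ± 0.18 (adjusted p = 0.000967) means that the measured change was smaller than the sum of both single changes.

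**Figure D3:**
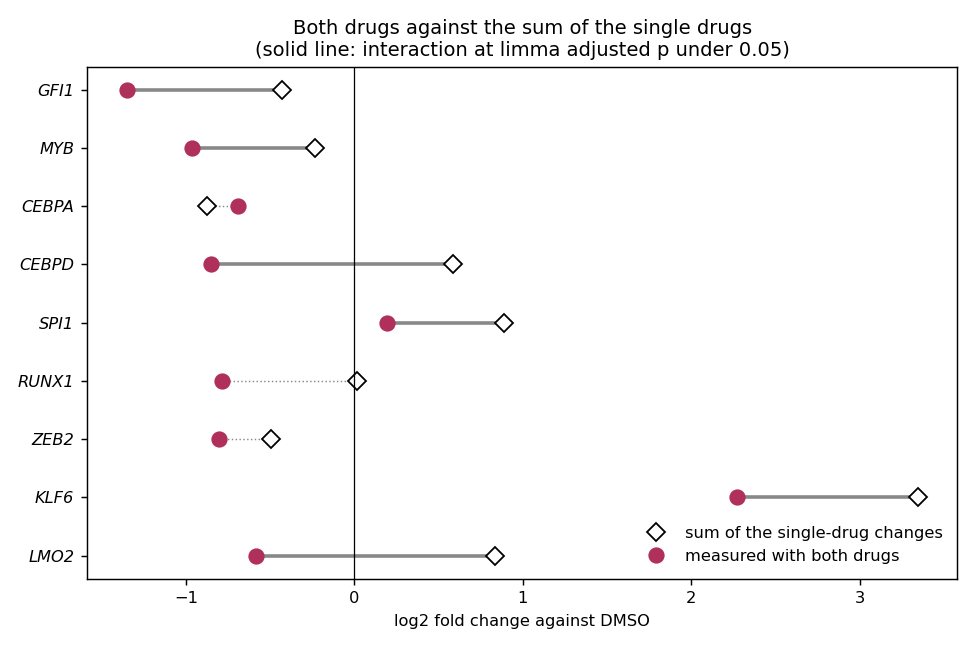
Log2 change against DMSO measured with both drugs (circles) and the sum of the changes with DSF and with NSM (diamonds) for 9 of the genes; solid lines join the pairs whose interaction passed the limma test. Among the pairs that passed, the circle lies to the left of the diamond for GFI1, MYB, CEBPD, SPI1, KLF6 and LMO2, by up to 1.43 for CEBPD. It also lies to the left for RUNX1 and ZEB2 (interactions of -0.80 and -0.31), which did not pass, and to the right for CEBPA.

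The deviation of NSM replicate 3 went with the base composition of the transcripts. Over 11802 tested genes with a transcript, its log2 difference from the mean of the other NSM libraries had a Spearman correlation of -0.74 with GC content, as a description across genes of these 3 libraries. By the same measure the DMSO and DSF libraries lay between -0.14 and 0.25, and the DSF+NSM libraries between -0.38 and 0.42. The 3 members with the most GC-rich transcripts read low in NSM replicate 3, with log2 differences of -1.48 for CEBPA (65.9% GC), -0.52 for CEBPD (66.0%) and -0.49 for SPI1 (65.2%). ZEB2 (39.1%), MYB (43.9%) and RUNX1 (47.1%) read high, by 1.28, 0.62 and 0.95. The members did not follow a strict order, since KLF6 (45.7%) differed by 0.14, GFI1 (50.6%) by -0.42 and LMO2 (55.5%) by -0.17, and IRF8 (47.6%), at a few reads, by -1.55. RUNX1 is near the middle of the genes, 46.2% of which had a lower GC content. The part of base composition in the NSM results was not tested, and the values without this library are given above.

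**Figure D4:**
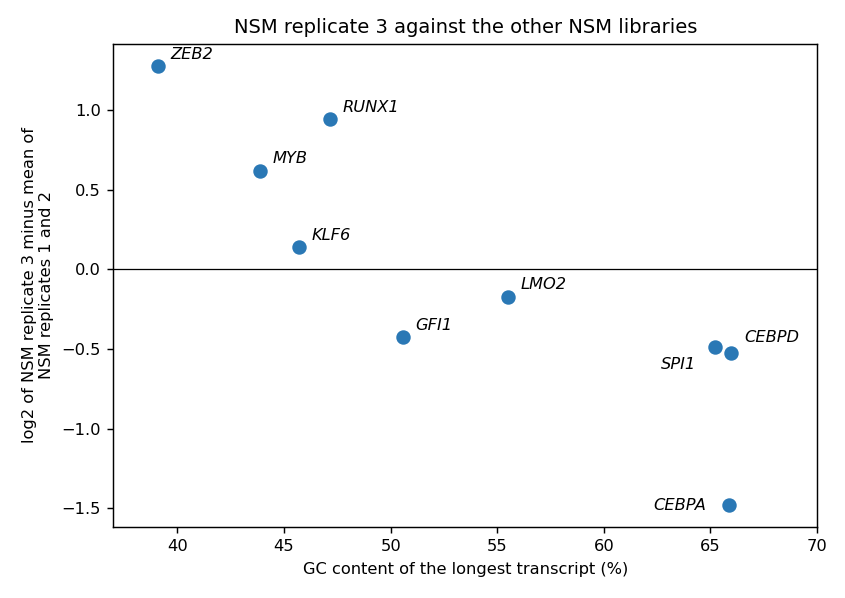
GC content of the longest transcript (x axis, %) and log2 difference of NSM replicate 3 from the mean of NSM replicates 1 and 2 (y axis) for 9 of the genes (IRF8 is left out for its low counts). The difference runs from 1.28 for ZEB2 at 39.1% GC to -1.48 for CEBPA at 65.9%.

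The lists that follow were compared with DMSO for both drugs, where 52.8% of all genes were called. There were 3816 higher and 3309 lower, or 1526 and 7608 on the equal-sums scale. Without NSM replicate 3, 67.7% of all genes were called. Higher and lower counts then were 19 and 6 for paralogues, 10 and 11 for partners and 19 and 4 for other transcription factors. They were 9 and 9 for target genes, 4 and 4 for identity markers and 2 and 2 for other-lineage markers. List counts without NSM replicate 2 or DSF+NSM replicate 1 are not given. Of 30 paralogues of the 10 factors tested, 16 rose and 6 fell, with a median log2 change of 0.85 beside 0.03 for all genes, but on the equal-sums scale 10 rose and 11 fell with a median of 0.07. KLF2, a quiescence factor of the KLF6 family, rose from a mean of 71.1 ± 11.2 normalized counts in DMSO to 973 ± 57.6 with both drugs (mean ± SD of 3 libraries here and for the genes below, log2 change of 3.76), IRF7 from 56.7 ± 11.4 to 324 ± 32.6 (2.51) and ZEB1 from 160 ± 23.7 to 487 ± 56.8 (1.60). CEBPE, a late granulocyte factor, fell from 2061 ± 111 to 818 ± 105 (-1.34), IRF5 from 831 ± 23.6 to 386 ± 52.2 (-1.11) and RUNX2 from 751 ± 20.8 to 420 ± 108 (-0.87). KLF2 also rose with DSF (2.69) and NSM (3.84), as KLF6 did, and its difference between the combination and NSM was -0.07 (adjusted p = 0.824).

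Among 26 tested partners and cofactors, 7 rose and 8 fell (median -0.14), or 3 and 17 (median -0.92) on the equal-sums scale. CBFB, the partner subunit of RUNX1, fell from 1076 ± 75.9 to 563 ± 161 (log2 change of -0.97), KDM1A, which encodes LSD1, from 1488 ± 208 to 887 ± 77.7 (-0.74) and the corepressor CTBP1 from 2113 ± 134 to 1299 ± 55.1 (-0.70). TRIB1, which promotes C/EBPα degradation, rose from 174 ± 26.8 to 568 ± 71.4 (1.70), the coactivator CREBBP from 634 ± 75.8 to 1341 ± 46.6 (1.08) and TCF12 from 948 ± 51.3 to 1919 ± 657 (0.97).

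Of 31 other haematopoietic transcription factors tested, 16 rose and 4 fell (median 0.73). On the equal-sums scale, however, 10 rose and 7 fell of 29, with a median of -0.0791. The rises included the B-cell factor EBF1 (log2 change of 3.95, SE 1.05, adjusted p = 0.00709). Those of the paralogues included SPIB, which B cells also express (3.87, SE 0.78, adjusted p = 0.00123). The part of the B-cell RNA of DSF+NSM replicate 1 in these rises was not tested. IKZF1, HHEX and NFE2 fell, from 2277 ± 221 to 706 ± 93.0 (log2 change of -1.69), from 918 ± 43.5 to 327 ± 63.4 (-1.50) and from 1657 ± 28.0 to 626 ± 53.6 (-1.41). NFE2, like LMO2, was higher with NSM alone (log2 change of 0.51, adjusted p = 0.00515) and lower with both drugs. The rises were led by the immediate early factor EGR3, from 4.93 ± 1.54 to 616 ± 94.7 (6.72), the nuclear receptor NR4A1, from 46.9 ± 10.3 to 523 ± 32.2 (3.47), and the repressor BCL6, from 93.0 ± 10.2 to 885 ± 132 (3.23).

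Of 27 myeloid target genes of these factors tested, 8 rose and 7 fell (median 0.06), or 3 and 17 (median -0.72) on the equal-sums scale. Among the granule protein genes MPO, PRTN3 and ELANE fell, by 1.45, 1.20 and 1.02 on the log2 scale, from DMSO means of 58058 ± 4281, 1322 ± 4.88 and 2792 ± 43.0, whereas AZU1 had a log2 change of 0.57 (adjusted p = 0.190) and CTSG one of -0.16 (adjusted p = 0.506). The monocyte receptor gene CD14 rose from 59.6 ± 5.46 to 336 ± 56.5 (2.46) and the integrin gene ITGAX from 765 ± 101 to 2283 ± 409 (1.57), while the monocyte and granulocyte genes S100A8 (-0.92, adjusted p = 0.00702) and S100A9 (-0.43, adjusted p = 0.0233) fell. AZU1, CTSG, S100A8 and S100A9 were named after their values were seen. Of the 10 myeloid identity markers, 4 rose and 3 fell (median -0.08), or 0 and 6 (median -0.86) on the equal-sums scale, with FCER1G (1.21), CD68 (1.12) and ITGAM (0.61) among the rises and MPO, CD4 (-0.73) and LYZ (-0.73) among the falls. Of 9 other-lineage markers tested, 2 rose and 2 fell (median 1.16), or 1 and 4 of 10 (median 0.0387) on the equal-sums scale. The calls on the scale of the authors included the T-cell gene CD3E (1.16) and PECAM1 (-0.90), which had the highest DMSO mean on this list, at 887.

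Genes whose levels followed each member most closely over the 12 libraries were named by Pearson correlation of log2 values among 9787 genes with a mean of at least 100, as a description. GFI1 was matched by COQ9 (0.99) and UCK2 (0.99), MYB by XPO7 (0.99) and SLC25A43 (0.99), and CEBPA by S1PR4 (0.99) and GPAA1 (0.99). For KLF6 they were HERPUD1 (0.99) and ZSWIM4 (0.99), for LMO2 KANSL2 (0.97) and SOX12 (0.97), and for SPI1 MLX (0.98) and ZNF768 (0.98). CEBPD was matched by RNF220 (0.97) and NFE2 (0.96), RUNX1 by ANLN (0.95) and MAP4K5 (0.95), ZEB2 by UBP1 (0.98) and LGR4 (0.98), and IRF8 by COQ6 (0.87) and BAX (0.81). The points share libraries and groups, and without NSM replicate 3 those for CEBPA became 0.99 and 0.97 and those for IRF8 0.80 and 0.72.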

How the data were processed

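RNA of 12 SHI-1 libraries was compared. The deposited signal is a normalized count per gene, made by the authors. The notes of the authors name bcl2fastq 2.19, Trimmomatic, Bowtie2, Picard, featureCounts, DESeq2 and build hg38, whereas their methods name STAR and Salmon. File headers name 24 libraries as the basis of the normalization. Only 32.2% to 32.9% of values were whole multiples of the lowest step (tolerance 0.01), so counts of reads could not be restored and tests for counts were not used.

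Values were tested as log2(value + 1) with limma 3.58.1 (R 4.3.3), fitting a mean per group over all 12 libraries with a trended, robust prior and no block, followed by Benjamini-Hochberg adjustment. Fold changes on this scale understate those of low genes. Lengths and GC content came from GENCODE 44, and figures from matplotlib 3.10.9.

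Members, lists and tests were chosen with earlier results of these data known. Named are the members, the 3 most raised and 3 most lowered called genes per list with both drugs (mean of at least 50), and the 2 genes most like each member. Results of 2 genes that would be named are not reported here. Alternatives were pseudocounts of 0.1 and 10, 2 filters, 4 scalings, only the groups compared, a replicate block, library weights, plain empirical Bayes, each library left out and, after seeing the data, both libraries high in PAX5 left out.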

Additional observations from a re-analysis of the deposited data

Results flagged for a closer look

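For 6 of the 10 genes, beside 26.1% of all genes, the change with both drugs differed from the sum of the single-drug changes, by the limma interaction test. Over all genes called, 1632 interactions were positive and 1895 negative, or 913 and 3866 on the equal-sums scale. The log2 difference was -0.92 for GFI1, -0.73 for MYB, -1.43 for CEBPD, -0.70 for SPI1, -1.07 for KLF6 and -1.42 for LMO2. For LMO2 and CEBPD the sum of the single changes was above 0 and the measured change below it. For GFI1 and MYB the measured fall was larger than the sum. For KLF6 the measured value was above DMSO but below the sum. That of SPI1 was also below the sum, but its change against DMSO was not called (0.19, adjusted p = 0.257). On the equal-sums scale SPI1 was called lower than DMSO. No test of single outlying libraries was made in groups of 3.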

How the results depend on the processing

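Of 54 log2 changes (9 genes without IRF8, 6 comparisons), 24 kept their direction and their side of the threshold in every alternative run, and the cause of the changes in the others was not tested. Pseudocounts of 0.1 and 10, no filter and at least 10 in every library changed none of the 54. The number of genes called with DSF was 4 when only the groups compared were fitted and 5 with library weights, beside 54% and 60.5% of all genes, and 1 to 3 over fits leaving out a library (6.75% to 41.1%). With NSM it was 3, 10 and 3 to 7, in the same order, beside 37.6%, 82.3% and 40.1% to 59.8%. The weights did not converge and gave NSM replicate 2 a weight of 32.8 and NSM replicate 3 one of 0.0233. Over fits leaving out a library the counts were 5 to 8 for DSF+NSM against DMSO (44.3% to 67.7% of all genes), 4 to 8 against DSF (34.5% to 60.1%), 5 to 8 against NSM (28% to 49%) and 4 to 7 for the interaction (19.4% to 45.7%). With only the groups compared, 4 were called against NSM (18.3%). Against DSF, 5 were called with the median of ratios (43.2%), the trimmed mean (43%) and plain empirical Bayes (42.1%), and the trimmed mean called 5 for the interaction (26.4%). Deviations of libraries with the same replicate number were weakly correlated, with a median of 0.0570 (-0.0644 to 0.2784, 2 of 18 above 0.1). For different replicate numbers the median was -0.0265 (-0.2333 to 0.2394). A fit with a replicate block called 1 gene with DSF (18.7% of all genes), 5 with NSM (50.7%) and 8 with both drugs (53.9%). It called 6 against DSF (44.3%), 6 against NSM (40%) and 6 for the interaction (27%). The gene added with both drugs was CEBPA (adjusted p = 0.0497).

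Directions turned as follows. With equal sums, and equal sums without rRNA, the log2 changes were -0.0742 and -0.0383 for CEBPA with DSF, -0.17 and -0.13 for MYB and -0.11 and -0.0786 for RUNX1 with NSM, -0.59 and -0.46 for SPI1 with both drugs, -0.31 and -0.21 for CEBPA and -0.33 and -0.24 for KLF6 against NSM, and -0.23 and -0.18 for the CEBPA interaction. The median of ratios gave -0.0204 for CEBPA with DSF and 0.0115 for SPI1 against DSF, for which the trimmed mean gave 0.0571. With library weights, and without NSM replicate 3, they were -0.12 and -0.10 for MYB and -0.30 and -0.16 for RUNX1 with NSM, -0.28 and -0.28 for CEBPA against NSM, -0.29 and -0.31 for the CEBPA interaction and 0.0820 and 0.12 for that of ZEB2. Over the fits leaving out a library, the lowest and highest values were -0.10 and 0.21 for MYB, -0.16 and 0.38 for RUNX1 and -0.62 and 0.0456 for ZEB2 with NSM, -0.0531 and 0.0514 for SPI1 against DSF, -0.28 and 0.46 for CEBPA against NSM, -0.31 and 0.43 for the CEBPA interaction and -0.55 and 0.12 for that of ZEB2. Leaving out both libraries high in PAX5 gave 0.0456 for ZEB2 with NSM and 0.0514 for SPI1 against DSF, and took from the calls LMO2 against DSF (-0.38), SPI1 against NSM (-0.40) and the interactions of MYB (-0.80) and SPI1 (-0.60), while that of RUNX1 (-1.21) was added. At an estimated 10.2 to 19.0 M reads per library, values of a few reads, as for IRF8, allow no statement on change.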
